A study of Solanum lycopersicum with 48 samples.

Results

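The response described here is that of roots of the tomato cultivar Guozhen to 7 days of low nitrogen, read by RNA-seq. It was chosen by the labels alone, as the 3 libraries of Guozhen root at 1 mM nitrogen and day 7 against the 3 at 9 mM nitrogen and day 7, so 6 of the 48 libraries of the series. The study grew 2 contrasting cultivars, Guozhen and Guizhen, in hydroponic Hoagland solution in a growth chamber, with 9 mM nitrogen as the normal supply and 1 mM as the low supply. Root and leaf were sampled at day 1 and day 7, with 3 libraries in each of 16 groups. No transgene, mutation or further agent is named for any group, and neither plant age nor the number of plants per library is given in the sources used here. It is also not stated that the 3 libraries of a group came from separate plants, so the p-values below measure the spread between these libraries, which may be technical.

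Plants take up nitrogen mainly as nitrate and ammonium. In the root, nitrate enters through transporters of the NRT1 and NRT2 families and ammonium through transporters of the AMT family. Nitrate is reduced to nitrite and then to ammonium, which glutamine synthetase and glutamate synthase build into amino acids. Roots short of nitrogen are known to raise their capacity for high affinity uptake and to change the hormones that shape root growth.

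The deposited values were FPKM, the number of fragments per kilobase of gene, scaled to the mapped fragments of the library, so levels of different genes can be compared per length. The table named genes by tomato locus number only. Its 28005 locus numbers shared no identifier with the RefSeq gene table at hand, so no gene name could be looked up. The 325 loci described below were put into 16 lists from recalled published locus numbers, and each class (such as "nitrite reductase") is a preset label that rests on memory and has no table behind it here. A gene is called here when limma on log2(FPKM + 1) gave a Benjamini-Hochberg adjusted p below 0.05, fitted over all 24 root libraries with 1 mean for each of 8 groups. Changes are log2 differences, low minus normal nitrogen, on that scale, which understates the change of genes near 0.

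The labelled organ was checked with 13 preset leaf markers, rubisco small subunits and chlorophyll a/b binding proteins. Their summed FPKM was 74186 to 105079 in the 6 Guozhen leaf libraries of day 7, against 67.9 to 94.1 in the 3 normal nitrogen root libraries and 34.8 to 68.0 in the 3 low nitrogen ones. In each nitrogen group 3 of the 13 were under 1 FPKM in every root library, and the part of these low leaf marker levels in the results was not tested. Between 18211 and 18477 genes reached 1 FPKM in each of the 6 root libraries, while their sequencing depth is unknown. Pearson correlations across genes were 0.963 to 0.974 within normal nitrogen, 0.959 to 0.973 within low nitrogen and 0.916 to 0.943 between them. On the second principal component of the 6 libraries (15.9% of the variance), low nitrogen replicate 1 stood apart from replicates 2 and 3. Named calls that rest on replicate 1 are therefore given with and without it.

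Of 20435 genes tested, 5640 were called, or 27.6%. Of these, 2622 (12.8% of those tested) were higher and 3018 (14.8%) lower in low nitrogen. That split turned to 3070 higher and 2633 lower under median-of-ratios scaling, so which direction had more calls depended on the scaling. Most changes were small: 1325 called genes changed at least 2-fold, 808 upward and 517 downward. At a change of 3 or more on the log2 scale stood 18 genes that rose and 19 that fell. Of the 5640 genes, 2854 were called again without each of the 6 libraries in turn. Without low nitrogen replicate 1, 3892 genes were called, and 4053 and 4076 without normal nitrogen replicates 2 and 3. The low and normal nitrogen libraries did not overlap at 5271 of the 5640 called genes (93.5%), so groups that lie apart add little to a call. Across chromosomes 1 to 12, between 25.1% and 30.8% of the tested loci were called. In bulk roots, fewer cells of a type and less RNA per cell cannot be told apart.

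**Figure D1:**
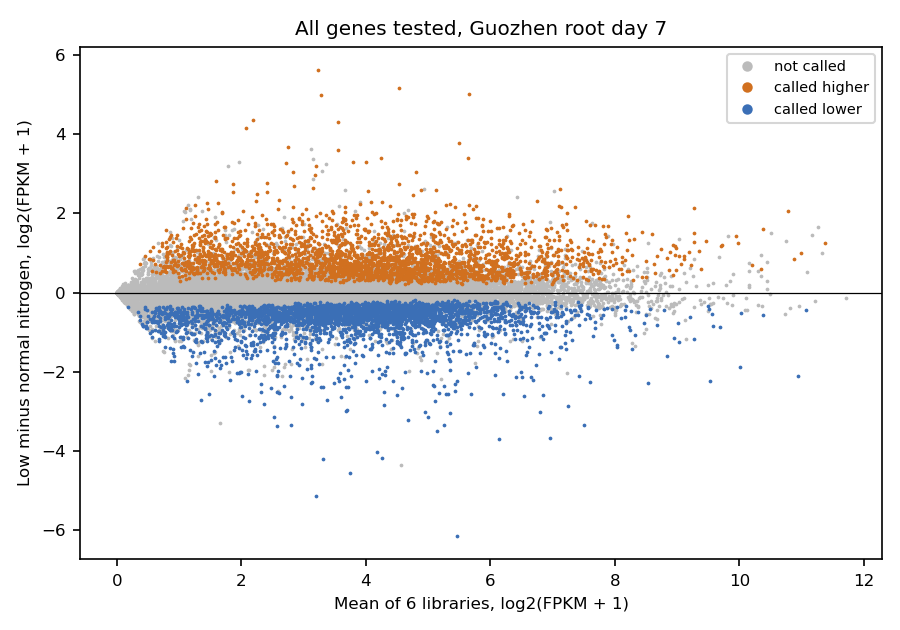
Change of each of the 20435 genes tested (low minus normal nitrogen, log2(FPKM + 1)) against its mean over the 6 libraries; grey points were not called, orange were called higher and blue lower. The 2622 rises and 3018 falls cover the whole range of levels, and few reach 3 on the log2 scale.

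The largest changes that were called without each library, with no overlap between groups and a group mean of at least 5 FPKM, belonged to loci in none of the lists. Solyc08g065670 stood at 5.004, 2.150 and 2.017 FPKM in normal nitrogen and at 119, 138 and 156 FPKM in low nitrogen, a log2 change of 5.16 ± 0.38 (SE, adjusted p = 6.0e-07). Solyc06g074990 stood at 18.92, 5.261 and 4.6 FPKM against 275, 253 and 330 FPKM, a log2 change of 5.01 ± 0.50 (SE, adjusted p = 7.1e-06). Every low nitrogen library of both was more than 10-fold above every normal one. Among the falls, Solyc08g007430 went from 361, 468 and 293 FPKM to 18.5, 0.185 and 5.18 FPKM, a log2 change of -6.14 ± 1.40 (SE, adjusted p = 0.0036). Solyc07g053370 went from 45.3, 62.0 and 53.0 FPKM to 1.28 FPKM in replicate 1, 0 in replicate 2 and 0.611 FPKM in replicate 3, a log2 change of -5.13 ± 0.57 (SE, adjusted p = 1.3e-05). The groups of both were far apart, and the low nitrogen libraries of Solyc08g007430 were themselves spread widely. The 10 largest rises spanned 3.30 to 5.16 on the log2 scale and the 10 largest falls -6.14 to -3.34. In the root of Guizhen, 8 of those 10 rises and all 10 falls were called in the same direction, against 19.0% of all Guozhen calls. These genes were picked for large changes, in a fit whose estimate of spread the Guizhen comparison shares.

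Over the 16 lists, 320 of 325 loci had values and 250 were abundant enough to be tested. Of these 250, 32 were called higher and 33 lower, which is 26.0% against 27.6% of all genes tested, so the lists as a whole were called about as often as the genome. The calls of 34 of the 65 loci held without each library in turn. Without low nitrogen replicate 1 the counts were 25 higher and 21 lower, and without normal nitrogen replicate 3 they were 23 and 24. All calls were upward in the flavonoid (4), ethylene (3), pathogenesis (3) and heat shock (2) lists. Of these, 2, 2, 1 and 1 held without each library. None of these upward lists was called more often than the 27.6% of all genes. Polyamine loci had 3 calls, all downward, of which 1 held. Cytokinin synthesis, response and breakdown loci were also called only downward, with 1 call each that held. So few calls do not show that the lists differed in direction. None of these directions was tested as a set.

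**Figure D2:**
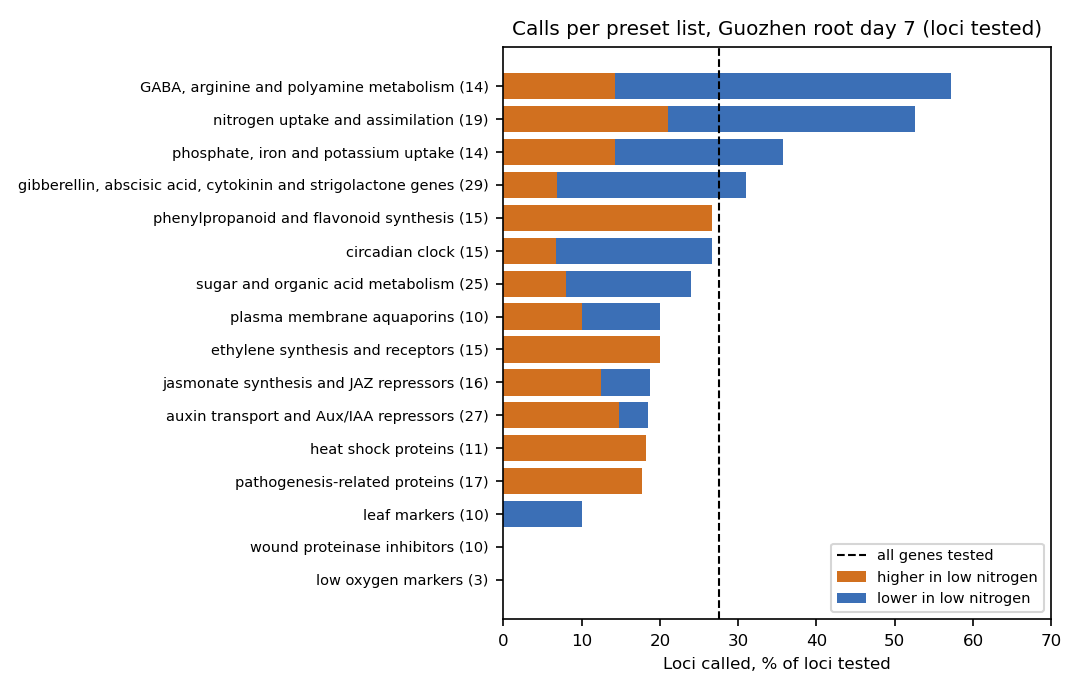
Share of the tested loci of each preset list called higher (orange) or lower (blue) in low nitrogen, in percent, with the number tested in brackets; the dashed line is the 27.6% called among all genes. The nitrogen list, at 52.6%, and the list of GABA, arginine and polyamine loci, at 57.1%, stand above the line, but the lists were made with earlier results of these data known, and 0 of 10 wound inhibitors and 0 of 3 low oxygen markers were called.

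Among nitrogen loci, 3 of 6 tested uptake loci rose, 2 of 3 reduction loci fell, and of 5 tested assimilation loci 1 rose and 2 fell. Of 22 loci, 19 were tested, 4 were called higher, 6 lower and 9 not, or 52.6% against 27.6% of all genes. Because the lists were made with earlier results of these data known, that excess is a description and not independent evidence, here and for every list below. The median change was -0.38 on the log2 scale beside -0.03 for all genes tested. Solyc09g090730, preset as AMT1.1, an ammonium transporter of the root, stood at 73.0, 73.1 and 53.6 FPKM in normal nitrogen and at 202, 346 and 370 FPKM in low nitrogen, a log2 change of 2.15 ± 0.38 (SE, adjusted p = 0.00058). Solyc03g112100, preset as NAR2, the partner protein that NRT2 nitrate transporters need, rose from 598, 579 and 495 FPKM to 1172, 1288 and 1374 FPKM (log2 change 1.2 ± 0.26 SE, adjusted p = 0.0024). Neither pair of groups overlapped, and NAR2 was the most abundant uptake locus at both supplies. Solyc08g078950, preset as the nitrate transporter NRT1.1, rose from 127, 82.8 and 94.1 FPKM to 188, 249 and 305 FPKM (log2 change 1.28 ± 0.37 SE, adjusted p = 0.015). Its call was lost without normal nitrogen replicate 2 (adjusted p = 0.06) and without low nitrogen replicate 3 (adjusted p = 0.057).

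Neither of the 2 tested NRT2 loci was called by limma, and 0 had an unadjusted p below 0.05. Solyc11g069760, the more abundant of them, stood at 192, 222 and 114 FPKM in normal nitrogen and at 351, 51.1 and 85.6 FPKM in low nitrogen (log2 change -0.55 ± 0.79 SE, adjusted p = 0.65). The groups overlapped through low nitrogen replicate 1 alone, at 351 FPKM. The other low nitrogen values, 51.1 and 85.6 FPKM, lay below every normal nitrogen value. The change of Solyc11g069760 without replicate 1 is not given here, so the lack of a call does not show an unchanged level. Solyc04g050440, preset as AMT1.2, stood at 56.6, 51.5 and 37.2 FPKM against 26.3, 44.1 and 41.4 FPKM (adjusted p = 0.48).

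Of the reduction loci, Solyc10g050890, preset as nitrite reductase, which turns nitrite into ammonium, fell most. It went from 315, 345 and 290 FPKM to 58.9, 27.04 and 35.4 FPKM (log2 change -3.01 ± 0.41 SE, adjusted p = 6.8e-05). Solyc11g013810, preset as nitrate reductase, the step before it, fell from 448, 469 and 351 FPKM to 180, 202 and 290 FPKM (log2 change -0.93 ± 0.25 SE, adjusted p = 0.0093). Groups of both loci were apart, and the nitrate reductase call was lost without low nitrogen replicate 1 (adjusted p = 0.051). The third, Solyc01g108630, also preset as nitrite reductase, stood at 9.04, 6.73 and 5.77 FPKM against 10.98, 5.65 and 6.39 FPKM, with overlapping groups (log2 change 0.05 ± 0.47 SE, adjusted p = 0.95). Solyc07g008240, preset as a non-symbiotic hemoglobin, a class that binds nitric oxide and oxygen, fell like nitrite reductase, from 374, 438 and 413 FPKM to 91.5, 37.1 and 48.5 FPKM (log2 change -2.87 ± 0.40 SE, adjusted p = 8.4e-05).

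**Figure D3:**
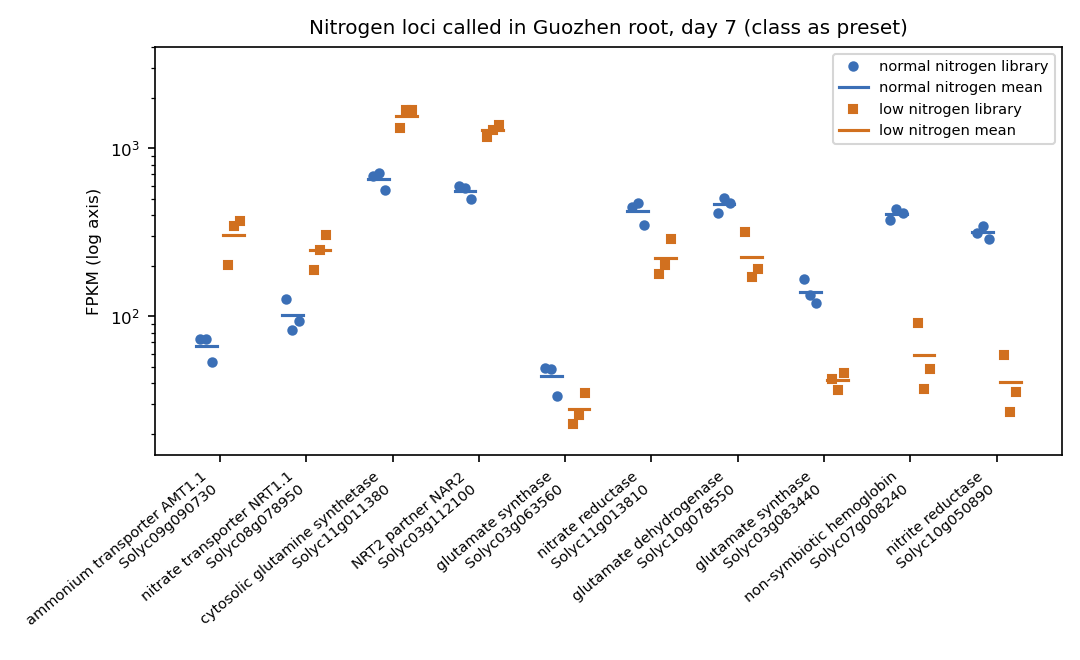
FPKM of the 10 called nitrogen loci in each library (log axis), with normal nitrogen as blue circles, low nitrogen as orange squares and group means as bars. The 3 libraries of each group lie apart from the other group at every locus but the glutamate synthase Solyc03g063560, whose groups overlap. Groups were apart at 93.5% of all called genes.

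In assimilation, Solyc11g011380, preset as a cytosolic glutamine synthetase, the enzyme that adds ammonium to glutamate, rose from 686, 708 and 562 FPKM to 1314, 1687 and 1684 FPKM (log2 change 1.26 ± 0.22 SE, adjusted p = 0.00058). A second locus of that class, Solyc04g014510, went the other way without passing the test, from 512, 536 and 488 FPKM to 181, 201 and 221 FPKM (log2 change -1.35 ± 0.51 SE, adjusted p = 0.054). Its groups did not overlap, as was true of 40.2% of all genes tested. Solyc03g083440, preset as a glutamate synthase, which makes glutamate from glutamine, fell from 168, 133 and 119 FPKM to 42.7, 36.7 and 45.9 FPKM (log2 change -1.72 ± 0.29 SE, adjusted p = 0.00035). The other glutamate synthase, Solyc03g063560, fell by 0.63 on the log2 scale (adjusted p = 0.017) with overlapping groups, and its call was lost without any one of normal replicates 1 and 2 and low replicates 1 and 2 (adjusted p up to 0.092). It was also lost on the 6 libraries alone (adjusted p = 0.079). Solyc10g078550, preset as a glutamate dehydrogenase, fell from 414, 506 and 473 FPKM to 316, 172 and 192 FPKM (log2 change -1.08 ± 0.31 SE, adjusted p = 0.016). That call was lost without normal replicate 2, low replicate 2 or low replicate 3 (adjusted p = 0.054, 0.068 and 0.053).

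At day 1 of the same roots, 8 of 20435 genes were called, or 0.0391%, with 876 at an unadjusted p below 0.05, and none of the 19 tested nitrogen loci was among them (0 with an unadjusted p below 0.05). The difference between the day 7 and the day 1 response was called for 2713 genes (13.3%), 5 nitrogen loci among them. It was called for 1805 genes without low nitrogen replicate 1, and for 1827 and 1878 without normal nitrogen replicates 2 and 3. AMT1.1 averaged 83.9 ± 14 FPKM (SD, n = 3) in normal and 83.3 ± 22 FPKM (SD, n = 3) in low nitrogen at day 1, and its response was larger at day 7 by 2.18 ± 0.54 on the log2 scale (SE, adjusted p = 0.014). The nitrite reductase Solyc10g050890 averaged 210 ± 58 and 162 ± 21 FPKM (SD, n = 3 each) at day 1, a response that differed from day 7 by -2.67 ± 0.58 (SE, adjusted p = 0.0067). The glutamine synthetase Solyc11g011380, the glutamate synthase Solyc03g083440 and the hemoglobin Solyc07g008240 were the other 3, with differences of 1.29, -1.61 and -2.70 (adjusted p = 0.013, 0.015 and 0.0057).

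**Figure D4:**
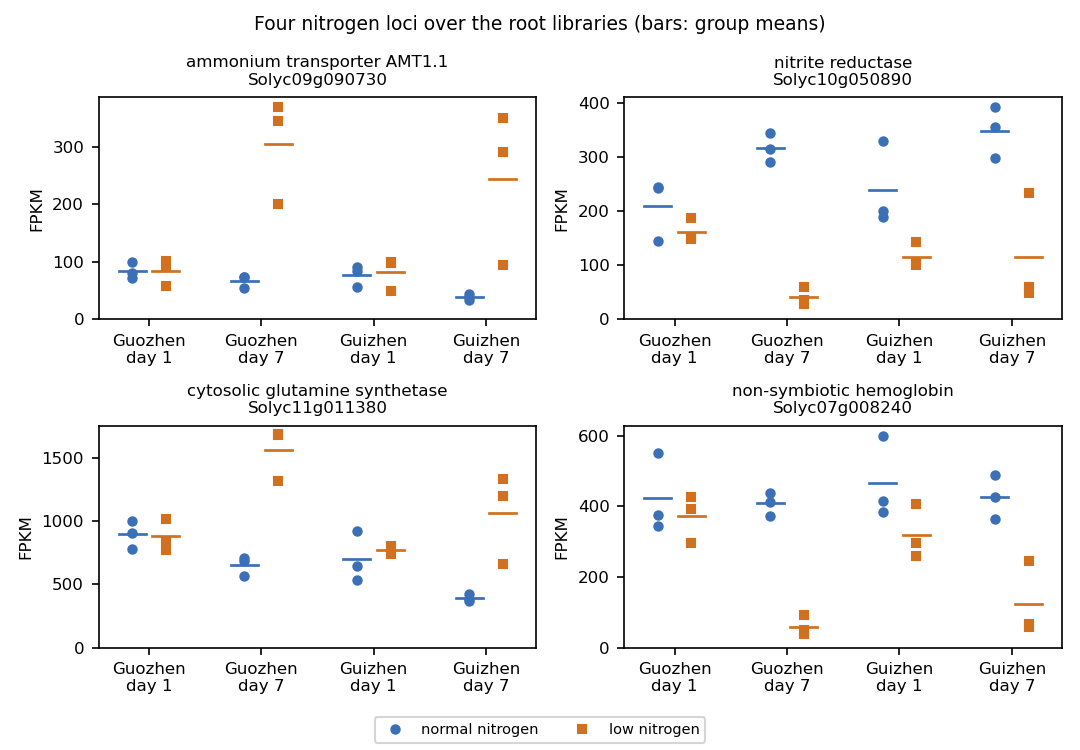
FPKM per library of 4 nitrogen loci in the 8 root groups, normal nitrogen as blue circles and low nitrogen as orange squares, with group means as bars. In Guozhen the nitrogen groups overlap at day 1 and are apart at day 7.

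In Guizhen roots at day 7, 1618 genes were called (7.92%), 905 higher (4.43%) and 713 lower (3.49%). Guizhen low nitrogen replicate 3 stood nearer to normal nitrogen than replicates 1 and 2 at several nitrogen loci. AMT1.1 was at 351, 291 and 94.2 FPKM in the 3 low nitrogen libraries, the nitrite reductase Solyc10g050890 at 59.9, 48.9 and 234 FPKM, and the hemoglobin Solyc07g008240 at 56.8, 65.4 and 244 FPKM. Without that replicate 2973 genes were called in Guizhen, against 504 and 457 without low replicates 1 and 2. The counts were 1354, 653 and 853 without normal replicates 1, 2 and 3. Fewer calls there do not by themselves show a smaller response. The difference between the cultivars was called for 79 genes (0.387%), with 3517 at an unadjusted p below 0.05. Of these 79 genes, 78 were also called in Guozhen, 75 had the larger change there, and the signs of the changes differed at 42. The same shares over all genes tested are not given here, so these counts do not show a stronger response in Guozhen. Whether the response as a whole was smaller in Guizhen was not tested. The count of 79 moved with every Guozhen library left out. It was 42, 13 and 10 without normal replicates 1, 2 and 3, and 10, 45 and 304 without low replicates 1, 2 and 3. With a Guizhen library left out, an alternative chosen after seeing the data, it was 115, 7 and 38 without normal replicates 1, 2 and 3, and 17, 85 and 123 without low replicates 1, 2 and 3. Genes called in the same direction in both cultivars numbered 1074, which is 19.0% of the Guozhen calls and 66.4% of the Guizhen calls, and 4 were called in opposite directions. By limma 0 of 19 nitrogen loci differed between the cultivars, with 4 at an unadjusted p below 0.05, and 0 were called when any one of the 12 libraries was left out. For NRT1.1 the change was 1.28 in Guozhen and 3.15 in Guizhen, a difference of -1.88 ± 0.52 (SE, adjusted p = 0.088), and normal nitrogen levels were 101 ± 23 FPKM and 27.3 ± 3.8 FPKM (SD, n = 3 each).

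**Figure D5:**
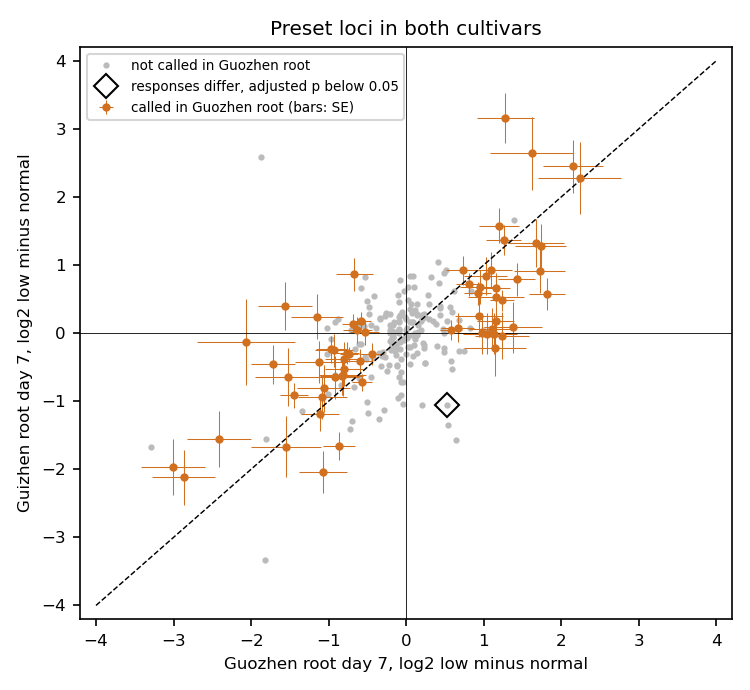
Log2 change of the 250 tested list loci in Guozhen (x) and Guizhen (y) roots at day 7, with SE bars for the 65 called in Guozhen and a dashed line where both are equal. The diamond marks Solyc10g079700, the one list locus called for a difference between the cultivars (adjusted p = 0.041), a call lost without most single libraries.

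Among the other nutrient transporters, iron and potassium loci were called in both directions and phosphate loci did not pass the test. Only the rises among the iron and potassium calls held without each library. Of 14 tested loci, 2 were called higher and 3 lower (35.7%), with a median change of -0.14. Solyc06g051550, preset as FER, a bHLH factor that turns on iron uptake, rose from 29.6, 21.5 and 17.5 FPKM to 48.8, 89.7 and 91.4 FPKM (log2 change 1.68 ± 0.35 SE, adjusted p = 0.002). Solyc02g069200, preset as an IRT iron transporter, fell from 99.1, 68.4 and 91.2 FPKM to 10.1, 31.8 and 72.4 FPKM (log2 change -1.53 ± 0.42 SE, adjusted p = 0.012). Its groups overlapped, and without low nitrogen replicate 1 its change was -0.81 and not called (adjusted p = 0.072), nor was it called on the 6 libraries alone (adjusted p = 0.13). The ferric chelate reductase locus Solyc01g094910 went from 59.7, 21.9 and 42.0 FPKM to 1.68, 9.40 and 28.5 FPKM (log2 change -2.06 ± 0.63 SE, adjusted p = 0.021), also with overlap. Without low nitrogen replicate 1 it stood at -1.16 (adjusted p = 0.15), and the call was lost too without normal replicate 1 (adjusted p = 0.08) or normal replicate 3 (adjusted p = 0.061), and on the 6 libraries alone (adjusted p = 0.13). Solyc12g005670, preset as the potassium transporter HAK5, rose from 6.03, 6.87 and 5.003 FPKM to 12.8, 46.2 and 52.1 FPKM (log2 change 2.23 ± 0.53 SE, adjusted p = 0.0047), with replicate 1 lowest of the low nitrogen libraries. The other called potassium locus, Solyc12g006850, had a log2 change of -1.06 (limma adjusted p = 0.027). That call was lost without normal replicate 2 or 3 or low replicate 1 (adjusted p = 0.095, 0.067 and 0.13). In limma 0 of 5 tested phosphate transporter loci were called, with 0 at an unadjusted p below 0.05.

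Of 14 tested GABA, arginine and polyamine loci, 2 were called higher and 6 lower, or 57.1%, with a median change of -0.33. Glutamate decarboxylase, which makes GABA from glutamate, changed in opposite directions by locus. Solyc11g011920 rose from 187, 147 and 161 FPKM to 277, 269 and 321 FPKM (log2 change 0.81 ± 0.17 SE, adjusted p = 0.0019). The much less abundant Solyc03g098240 fell from 2.07, 3.002 and 3.28 FPKM to 0.633, 0.168 and 0.355 FPKM (log2 change -1.45 ± 0.18 SE, adjusted p = 2.7e-05). Groups were apart at both loci. Solyc01g091160, preset as arginase, which splits arginine to ornithine and urea, fell from 38.7, 66.1 and 61.9 FPKM to 8.74, 10.7 and 8.70 FPKM (log2 change -2.42 ± 0.41 SE, adjusted p = 0.00039). All 6 tested polyamine loci had negative changes and 3 were called, of which 1 kept its call without each library. Solyc05g010420, preset as S-adenosylmethionine decarboxylase, which supplies the aminopropyl groups of polyamines, was the most abundant, at 1609, 1582 and 1663 FPKM against 1030, 1120 and 1125 FPKM (log2 change -0.57 ± 0.13 SE, adjusted p = 0.0029). That call held without each library but was lost when the 6 libraries were fitted alone (adjusted p = 0.075).

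Of 25 tested sugar and organic acid loci, 2 were called higher and 4 lower (24%, median -0.09). Solyc11g017010, preset as a SUT sucrose transporter, fell from 272, 228 and 294 FPKM to 163, 161 and 149 FPKM (log2 change -0.74 ± 0.11 SE, adjusted p = 0.00018). Solyc12g014250, preset as a PEP carboxylase, which makes the carbon skeletons that take up nitrogen, fell from 55.2, 56.6 and 52.1 FPKM to 24.2, 39.3 and 39.8 FPKM (log2 change -0.69 ± 0.15 SE, adjusted p = 0.0022). Its change was -0.46 without low nitrogen replicate 1, and it was not called when the 6 libraries were fitted alone (adjusted p = 0.054). Groups were apart at both loci. Solyc10g083300, preset as a cell wall invertase, which splits sucrose outside the cell, rose from 16.9, 17.8 and 10.2 FPKM to 40.5, 29.8 and 50.9 FPKM (log2 change 1.38 ± 0.37 SE, adjusted p = 0.0098), a call lost without normal replicate 3 (adjusted p = 0.055).

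Of 15 tested phenylpropanoid and flavonoid loci, 4 were called higher and 0 lower (26.7%, median 0.09). Of the 30 loci in that list 14 were below the filter. Solyc02g083860, preset as flavanone 3-hydroxylase, an early step toward flavonols and anthocyanins, rose from 4.31, 2.99 and 2.45 FPKM to 11.01, 19.2 and 12.1 FPKM (log2 change 1.81 ± 0.23 SE, adjusted p = 4.2e-05). Solyc10g086250, preset as a MYB regulator of the anthocyanin pathway, rose from 0.117, 0.250 and 0.143 FPKM to 1.46, 1.53 and 1.82 FPKM (log2 change 1.15 ± 0.19 SE, adjusted p = 0.00029). Its level stayed under 2 FPKM, where the pseudocount compresses a change.

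Of the hormone lists, auxin loci were called 4 times higher and once lower among 27 tested (18.5%). The 3 repressors called among 18 Aux/IAA loci, which block auxin-responsive genes until auxin removes them, all rose and kept the call without each library. Solyc09g083290 rose from 132, 108 and 101 FPKM to 324, 214 and 232 FPKM (log2 change 1.15 ± 0.23 SE, adjusted p = 0.0016). Solyc01g097290 rose from 46.9, 39.5 and 37.0 FPKM to 112, 95.9 and 86.5 FPKM (log2 change 1.23 ± 0.16 SE, adjusted p = 3.6e-05). Solyc10g078370, preset as a PIN auxin efflux carrier, fell from 26.6, 19.9 and 25.1 FPKM to 10.7, 12.9 and 11.4 FPKM (log2 change -0.97 ± 0.20 SE, adjusted p = 0.0016). Groups were apart at all 3 loci.

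For ethylene, 3 of 15 tested loci were called, all higher (20%). Solyc05g050010, preset as an ACC synthase, the committed step of ethylene synthesis, rose from 2.27, 1.83 and 1.69 FPKM to 7.70, 8.04 and 10.3 FPKM (log2 change 1.72 ± 0.33 SE, adjusted p = 0.00099). Solyc06g053710, an ethylene receptor, rose from 2.39, 1.39 and 2.71 FPKM to 4.97, 6.24 and 5.79 FPKM (log2 change 1.1 ± 0.27 SE, adjusted p = 0.0053), while the other 6 receptor loci were not called. For jasmonate, limma called 0 of 6 tested synthesis loci (1 at an unadjusted p below 0.05). Of 10 tested JAZ repressors, 2 were called higher and 1 lower (30%, against 27.6% of all genes), with a median change of -0.11. Solyc06g068930 rose from 6.51, 6.45 and 6.49 FPKM to 13.5, 23.3 and 22.0 FPKM (log2 change 1.42 ± 0.24 SE, adjusted p = 0.00039).

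Of 29 tested gibberellin, abscisic acid, cytokinin and strigolactone loci, 2 were called higher and 7 lower (31.0%, median -0.10). Solyc01g080150, preset as the isopentenyltransferase IPT3, an enzyme of cytokinin synthesis, fell from 19.1, 13.8 and 18.6 FPKM to 11.8, 5.83 and 5.59 FPKM (log2 change -1.11 ± 0.25 SE, adjusted p = 0.0031). Solyc05g006420, preset as a type A response regulator, a class that cytokinin turns on, fell from 37.1, 36.8 and 35.0 FPKM to 24.8, 18.2 and 16.2 FPKM (log2 change -0.87 ± 0.21 SE, adjusted p = 0.0045). The regulator Solyc10g079700 did not follow, at 36.8, 32.6 and 34.4 FPKM against 64.7, 48.5 and 40.7 FPKM (adjusted p = 0.083). In Guizhen it fell from 57.0 ± 5.4 to 27.1 ± 3.8 FPKM (SD, n = 3 each), and the responses differed by 1.58 ± 0.31 on the log2 scale (SE, adjusted p = 0.041). That difference was called without low replicate 3 (adjusted p = 0.024) but not without any of the other 5 libraries, where adjusted p was 0.054 to 0.13. It was also lost without Guizhen normal replicate 2 or 3 or low replicate 1 or 2 (adjusted p = 0.057 to 0.12). Solyc08g005610, preset as the abscisic acid 8-hydroxylase, which breaks down abscisic acid, fell from 40.2, 43.3 and 40.9 FPKM to 14.96, 11.5 and 13.9 FPKM (log2 change -1.56 ± 0.35 SE, adjusted p = 0.0031). Solyc08g062950, preset as MAX1 of strigolactone synthesis, rose from 10.2, 8.40 and 8.56 FPKM to 15.1, 20.2 and 20.3 FPKM (log2 change 0.95 ± 0.25 SE, adjusted p = 0.0089). Solyc09g065750, preset as D27 of the same pathway, stood at 0.222, 7.35 and 5.24 FPKM in low nitrogen and under 0.5 FPKM in every normal library. Its change was 1.62 (adjusted p = 0.032), and 2.47 (adjusted p = 0.00086) without low replicate 1. It was not called without any other single library (adjusted p = 0.051 to 0.17) or on the 6 libraries alone (adjusted p = 0.14).

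The remaining lists were called no more often than all genes. In the circadian clock list 1 of 15 tested loci was called higher and 3 lower (26.7%), and the pseudo-response regulator Solyc03g081240 fell from 21.4, 23.4 and 24.01 FPKM to 9.61, 15.1 and 15.2 FPKM (log2 change -0.77 ± 0.16 SE, adjusted p = 0.0018). Of 17 tested pathogenesis-related loci 3 were called higher, among them the osmotin-like Solyc08g080650, which rose from 160, 153 and 130 FPKM to 352, 272 and 336 FPKM (log2 change 1.11 ± 0.30 SE, adjusted p = 0.01). Of 10 aquaporin loci, which encode water channels of the plasma membrane, 1 was called higher and 1 lower. The most abundant gene of the 6 libraries, the aquaporin Solyc11g069430, stood at 3112, 4057 and 3380 FPKM against 3162, 3231 and 3159 FPKM (adjusted p = 0.65). Of 11 tested heat shock loci 2 were called higher, both under 8 FPKM in every library. The 10 tested wound inhibitor loci all had negative changes, from a list of 28 in which 17 were below the filter, and limma called 0, with 1 at an unadjusted p below 0.05 and the lowest adjusted p at 0.06 for Solyc03g020030. Limma also called 0 of 3 low oxygen markers, with 0 at an unadjusted p below 0.05, though all 3 had positive changes (median 0.49). Of 10 tested leaf markers 1 was called, and it was lower in low nitrogen.

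In Guozhen leaf at day 7, fitted apart, 3515 of 19815 genes were called (17.7%), 2431 higher (12.3%) and 1084 lower (5.47%). That split turned to 1191 higher and 1792 lower under median-of-ratios scaling, and the median leaf gene stood at 0.14 without it, so leaf values are read against that shift. Of genes tested in both organs, 888 were called in the same direction, 17.8% of the root calls and 26.5% of the leaf calls, and 213 in opposite directions. These counts rest on the unscaled values and so carry that shift, and they were not made under the scaling. The glutamine synthetase Solyc11g011380 changed by 1.34 (adjusted p = 0.0061), the nitrite reductase Solyc10g050890 by -0.96 (adjusted p = 0.026) and the hemoglobin Solyc07g008240 by -1.74 (adjusted p = 0.0039) in leaf. No difference between organs was tested.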

How the data were processed

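RNA-seq libraries of Guozhen roots were read from the deposited FPKM table. HISAT2 and StringTie are named in the submitters' processing notes. Their versions, the genome build and the handling of strand and of reads shared by near-identical genes are not given in the sources used here. Deposited FPKM values had steps down to 1e-06, so whole reads could not be recovered and depth is unknown. No count test was run. Genes reaching 1 FPKM in 3 or more of the 24 root libraries were fitted with limma 3.58.1 (R 4.3.3) on log2(FPKM + 1), with a variance trend, 1 mean for each of 8 groups, and Benjamini-Hochberg adjustment over all genes tested. A pseudocount of 0.1, no filter, median-of-ratios scaling, the 6 libraries alone, a replicate block, each library left out and an adjusted p below 0.01 were the alternatives. The leaf alternatives and leaving out each Guizhen library were chosen after seeing the data. On simulated data of 20435 genes with 200 changed, log2 changes of size 1 were found in 74% of cases and of size 2 in 95%, with 14 false calls among 183. The changed genes were drawn only from the more abundant genes, and the errors were independent and normal. Far fewer genes were changed there than were called in the real data. These rates therefore do not carry over to the real calls, for genes of low level or of high level.

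Members and lists were chosen with earlier results of these data known, from recalled locus numbers. Named genes were the called list loci, list loci whose group mean reached 5 FPKM, and the largest changes called without each library, with separate groups and a group mean of at least 5 FPKM. Because no name table matched, only 2 rises and 2 falls outside the lists are named. An exact two-sided permutation test of 3 libraries against 3 has a smallest p of 0.1, so none was run. Sequences were not used here.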

Additional observations from a re-analysis of the deposited data

Results flagged for a closer look

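Within Guozhen roots, 5 nitrogen loci had a nitrogen response at day 7 that differed from day 1 in the limma test of the difference, adjusted over all genes. The log2 difference, day 7 minus day 1, was 2.18 for the ammonium transporter locus Solyc09g090730 and 1.29 for the glutamine synthetase locus Solyc11g011380. It was -2.67 for the nitrite reductase locus Solyc10g050890, -1.61 for the glutamate synthase locus Solyc03g083440 and -2.70 for the hemoglobin locus Solyc07g008240. Day 1 and day 7 are separate harvests.

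Between cultivars, the type A response regulator locus Solyc10g079700 differed in its response at day 7 by 1.58, Guozhen minus Guizhen (adjusted p = 0.041). That call was lost without any of 5 of the 6 Guozhen libraries (adjusted p = 0.054 to 0.13) and without any of 4 of the 6 Guizhen libraries (adjusted p = 0.057 to 0.12).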

How the results depend on the processing

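The count of 5640 genes called in Guozhen roots was 3663 on the 6 libraries alone (1932 higher, 1731 lower) and 2990 at an adjusted p below 0.01 (1408 higher, 1582 lower). Leaving out 1 library gave 3892 to 5095 calls, 1784 to 2506 of them higher, 2012 to 2683 lower and 1065 to 1487 of at least 2-fold. The difference from Guizhen, called for 79 genes, was called for 21 with a pseudocount of 0.1, 173 without a filter, 10 to 304 when 1 Guozhen library was left out and 7 to 123 when 1 Guizhen library was. The difference from day 1, called for 2713 genes, was called for 1805 to 2740 with 1 library left out. The 32 list loci called higher became 20 and the 33 called lower became 15 at an adjusted p below 0.01, and 23 to 35 and 21 to 29 with 1 library left out. The cause was not tested, apart from the stricter threshold and the fewer samples that these alternatives have by construction.

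Same-numbered libraries did not deviate together (correlations 0.0744, -0.02 and -0.159), so the replicate numbers were not taken as pairs. With the replicate block on the 6 libraries, 2202 genes were called, 1296 higher and 906 lower.

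The 69 loci tracked singly were picked from the called genes, and none changed sign under these alternatives. Their sign could not change without a filter, on the 6 libraries alone, with the replicate block or at the stricter threshold. In those fits the log2 change is the same by construction. Calls were lost at 12 on the 6 libraries alone, 30 at an adjusted p below 0.01 and 23 with the replicate block. They were also lost at 5 without a filter and 2 under the scaling. Leaving out 1 library lost 8 to 20 calls, the most without low nitrogen replicate 1. With 3 libraries a group and unknown depth, small changes of low genes are the least certain.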

Other observations

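Neighbouring loci preset as the same enzyme differed widely between libraries of a group. Of the phenylalanine ammonia-lyase loci on chromosome 9, Solyc09g007920 was at 0.0379, 912 and 0 FPKM in the normal nitrogen libraries while Solyc09g007910 was at 1180, 106 and 986 FPKM. Their sum with Solyc09g007900 was 1721, 1549 and 1647 FPKM in normal nitrogen and 308, 1068 and 1472 FPKM in low nitrogen, lowest in replicate 1. Over all genes tested, 65 went from under 0.1 to over 10 FPKM within one of the groups, and 3 of these were called. Values of single loci in such families are uncertain here.

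Of the 10 most abundant genes, at a mean of 2182 to 3350 FPKM, 2 were called higher, 2 lower and 6 not. There were 18 runs of at least 4 neighbouring locus numbers called in the same direction, 8 upward and 10 downward, and the longest held 7 loci on chromosome 11. Of 564 tested genes that the authors had newly assembled, 93 were called (16.5%), against 27.9% of the genes with a locus number.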
